A study of Mus musculus with 2 samples.

Results

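The genes described here are 10 mouse genes whose transcripts are hallmarks of the 2-cell embryo. They are Zscan4c, Zscan4d, Zscan4f, Zfp352, Tcstv1, Tcstv3, Tdpoz3, Tdpoz4, Obox3 and Obox6, picked by name from the 55413 genes of GENCODE vM21 on chromosomes 1 to 19, X and Y. Around each of them, the ATAC-seq peaks of mouse embryonic stem cells (mESCs) were looked up by distance from the annotated gene start. The cells were EHMT2-dTAG mESCs, made from KH2 cells of a C57BL/6J x 129S1 F1 background. Both copies of Ehmt2, the gene of an H3K9 methyltransferase, carry the degron FKBP12F36V, HA tags and an mCherry reporter. Cells of 2 independent clones were grown with FBS/LIF on mitomycin C-treated feeder fibroblasts and received the vehicle DMSO for 24 h, so no degrader was given. ATAC-seq maps open DNA by where the transposase Tn5 can cut it. It was carried out on 50000 cells of each clone, and the deposited list holds 116782 peaks called on both clones merged. It has a single condition and no value for either clone, so the results carry no spread between replicates and no test.

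In the mouse embryo, the 2-cell stage is when the zygotic genome is switched on, and the cells are still totipotent. Cultured mESCs enter a state like it rarely and for a short time, and such 2-cell-like cells (2CLCs) are recognised by transcripts of the Zscan4 family and of MERVL retroviral elements. The transcription factor DUX binds many of these genes when it is present, and OBOX homeobox factors act in the embryo at the same stage. Most of the genes sit in clusters of related copies, with pseudogenes between them. ATAC-seq of a bulk culture averages over all of its cells, so fewer cells with an open locus and a less open locus in each cell cannot be told apart.

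The DNA just before the gene start is shown first, because the absence of a peak there is the main observation. RefSeq's promoter table (GRCm38.p6) had an entry at the gene start for 6 of the 10 genes, namely Zscan4c, Zscan4d, Zscan4f, Zfp352, Tdpoz4 and Obox3. The others are Tcstv1, Tcstv3, Tdpoz3 and Obox6. The RefSeq start was that of GENCODE for 4 of the 6 and lay 11 bp from it at Zscan4d and 125 bp at Obox3. Each sequence below ends at the last base before the RefSeq start and is written 5′ to 3′ in the direction of the gene. Capitals mark matches, on either strand, to TATAAA (the TATA box), CCAAT (the CCAAT box) or GGATTA (bound by OBOX and OTX homeodomain proteins). The Zscan4 sequences are cut to their last 100 bases.
Zscan4c, chr7:11005645-11005744, plus strand: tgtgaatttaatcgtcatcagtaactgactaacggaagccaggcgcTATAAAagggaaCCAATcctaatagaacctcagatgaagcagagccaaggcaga
Zscan4d, chr7:11166149-11166248, minus strand: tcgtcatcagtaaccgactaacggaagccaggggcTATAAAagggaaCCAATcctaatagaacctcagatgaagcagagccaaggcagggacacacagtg
Zscan4f, chr7:11397815-11397914, plus strand: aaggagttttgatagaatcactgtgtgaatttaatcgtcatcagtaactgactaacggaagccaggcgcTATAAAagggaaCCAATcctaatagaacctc
Zfp352, chr4:90218570-90218819, plus strand: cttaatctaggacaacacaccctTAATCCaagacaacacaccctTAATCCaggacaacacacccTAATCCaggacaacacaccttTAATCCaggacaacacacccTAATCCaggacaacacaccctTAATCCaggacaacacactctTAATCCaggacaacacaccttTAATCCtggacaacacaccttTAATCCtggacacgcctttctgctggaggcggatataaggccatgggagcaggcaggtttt
Obox3, chr7:15639778-15640027, minus strand: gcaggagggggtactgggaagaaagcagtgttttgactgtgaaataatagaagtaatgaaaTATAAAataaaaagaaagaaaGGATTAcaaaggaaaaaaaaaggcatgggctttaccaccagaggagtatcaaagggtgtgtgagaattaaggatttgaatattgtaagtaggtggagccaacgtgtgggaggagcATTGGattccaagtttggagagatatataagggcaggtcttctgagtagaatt
Tdpoz4, chr3:93796148-93796397, plus strand: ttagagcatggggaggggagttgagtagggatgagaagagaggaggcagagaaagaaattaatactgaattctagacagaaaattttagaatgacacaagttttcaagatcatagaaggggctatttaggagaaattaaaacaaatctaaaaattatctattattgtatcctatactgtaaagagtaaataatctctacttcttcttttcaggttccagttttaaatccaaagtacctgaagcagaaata

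The Zscan4 promoters were copies of each other. Over the 250 bases before the start, Zscan4c and Zscan4f shared 226 aligned bases with 1 mismatch, and their RefSeq starts lie at different places in the shared sequence. Zscan4c and Zscan4d shared 232 bases with 7 mismatches. A TATA box and, behind it, a CCAAT box lie in the same order in these 3 genes, with the TATA box beginning 54, 65 and 31 bases before the RefSeq start of Zscan4c, Zscan4d and Zscan4f. The Zfp352 promoter was a tandem array: GGATTA, read on the opposite strand, occurred 9 times at a spacing of 20 to 21 bases, from 227 to 61 bases before the start. Among the 13819 protein-coding promoters with a sequence, 6.19% held GGATTA, 45 held it more than once, and the highest number outside Zfp352 was 4. The Obox3 promoter held it once. TATAAA occurred in 11.3% of these promoters and CCAAT in 39.1%. The GC box GGGCGG, present in 51.6%, and GATTNAATC, a core of the site bound by DUX, present in 0.239%, were in none of the 6 promoters. GGATTA and GATTNAATC share letters and could overlap, and these windows cover 250 bases before to 50 bases after the start.

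None of the 10 genes had a peak at its start, taken as a peak within 500 bp of the first base of the gene record. Of 21938 protein-coding genes, 64.3% had one. The nearest peak to a start lay between 781 bp away, for Tdpoz4, and 66168 bp away, for Zscan4f, with a median of 7726 bp. Over all protein-coding genes the median was 0 bp, since 12990 of them began inside a peak, and the third quartile was 3951 bp. Protein-coding genes with copied sequence at the start or few CpG dinucleotides were farther from a peak. All protein-coding genes were split by the share of 100-base sequences around the start that occur once in the genome. The median distance was 79195 bp under 50% and 8081 bp from 50% to under 90%. It was 2556 bp from 90% to under 100% and 0 bp at 100%. These classes hold 2, 5, 2 and 1 of the 10 genes, so the median of the 10 is not that of a single class. The median was 7878.5 bp over protein-coding genes with a promoter sequence holding at most 4 CpG dinucleotides. Only 6 of the 10 genes have a promoter sequence, so this value cannot be set beside the median of the 10. Of protein-coding genes, 34.5% were farther from a peak than Tdpoz4, and 3.37% were farther than Zscan4f. The result did not change when the start of any annotated transcript was taken in place of the gene record. Zscan4c, Zscan4d, Tdpoz3, Tdpoz4 and Obox6 have 1 annotated transcript start each, so for these genes it could not change.

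**Figure D1:**
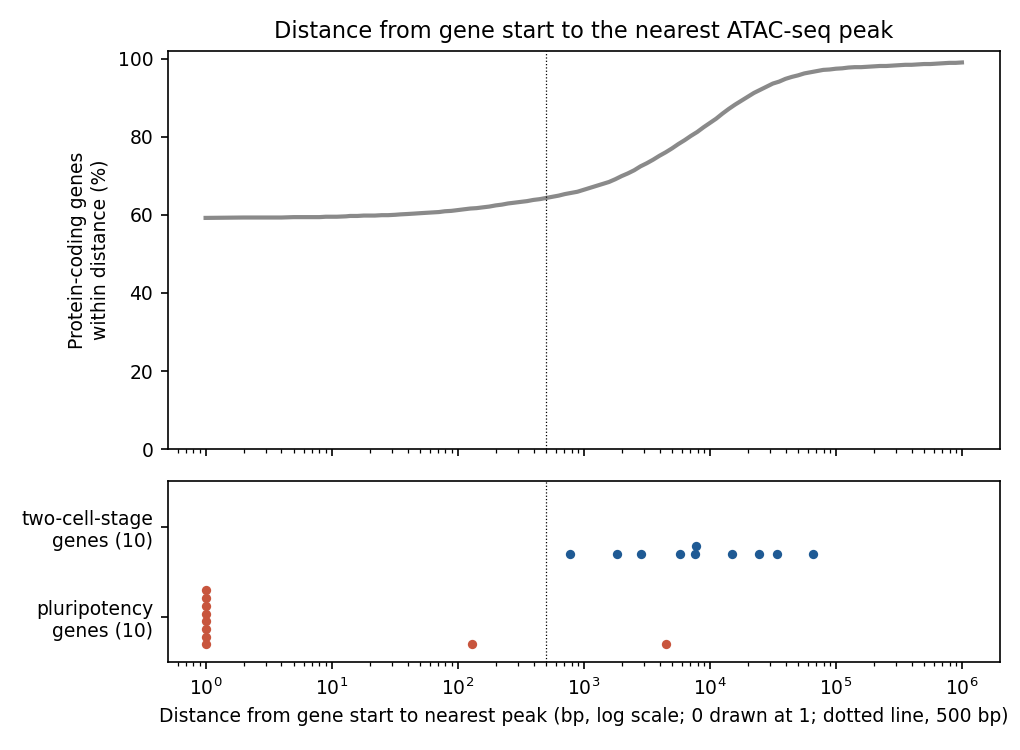
Distance in bp (log axis, 0 drawn at 1) from gene start to nearest ATAC-seq peak: the cumulative share of 21938 protein-coding genes (line, percent) above, and 1 point for each of the 10 2-cell-stage genes and 10 pluripotency genes below. The 2-cell-stage genes lie at 781 bp or more, right of the dotted line at 500 bp, while 9 of 10 pluripotency genes lie left of it.

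The wider surroundings were less bare. A peak overlapped the gene or the 20 kb on either side of it for 7 of 10 genes, against 92.5% of protein-coding genes. The exceptions were Zscan4f, Obox3 and Obox6. Near the 7 genes there were 17 distinct peaks, of which 12 lay upstream and 5 downstream of the nearest of the genes, and 16 lay between annotated genes. The joined loci had 30.1 peaks per Mb of sequenced bases, against 44.1 over chromosomes 1 to 19, X and Y. Without the long, peak-free Obox3 locus the value was 46.7, so a density below that of the chromosomes rested on Obox3. The chromosome value is not one of gene loci. The median number of peaks in the gene or within 20 kb was 2 for the 10 genes, against 4 for protein-coding genes.

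**Figure D2:**
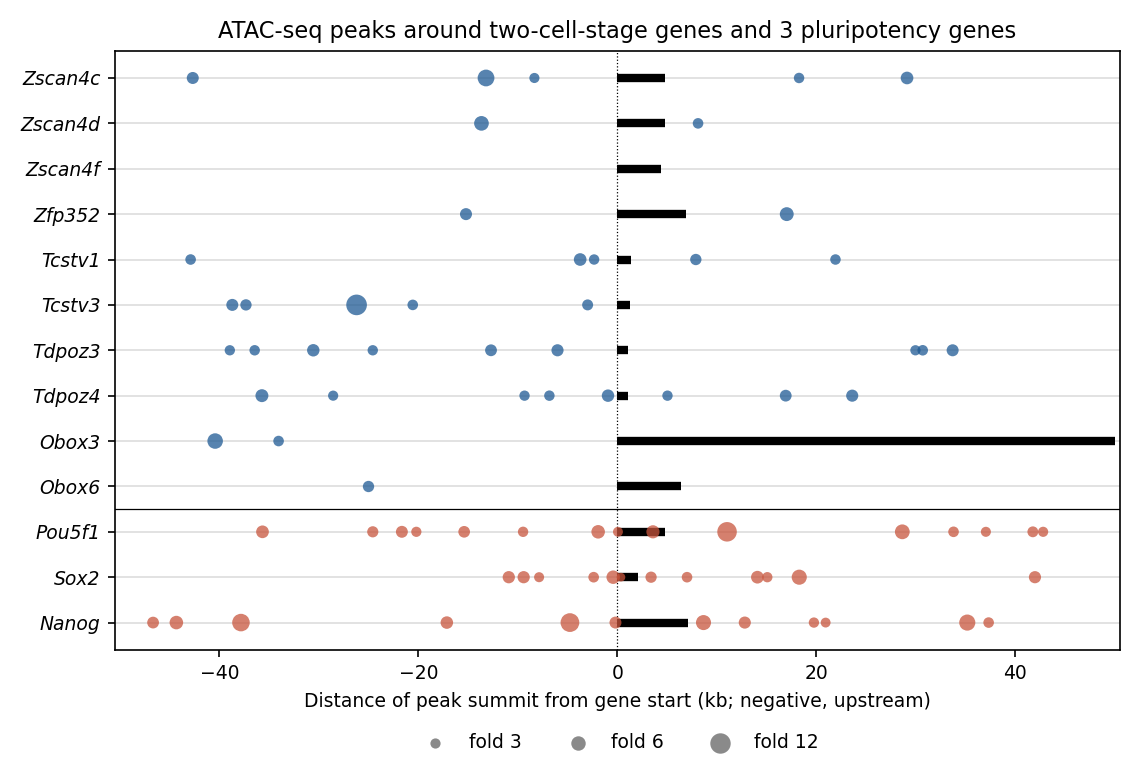
Summits of ATAC-seq peaks within 50 kb of the start of each 2-cell-stage gene (blue) and of 3 pluripotency genes (red), in kb in the direction of the gene, with the point area proportional to fold enrichment and the gene record as a black bar (cut at 50 kb for Obox3). No blue point lies at the dotted line of the gene start, and Zscan4f has no point at all.

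The 17 peaks near the genes had medians of strength close to those of the whole peak list, with fewer strong peaks among them. The fold enrichment, which is the fragment pileup at the summit plus 1 over the local background plus 1, had a median of 3.70 over the 17 peaks, with a range from 2.96 to 8.10. It was 3.98 over all peaks, with quartiles of 3.24 and 6.01, so 9 of the 17 peaks were below the median of the list and 2 were above its upper quartile. The number of fragments over the summit, worked out from the deposited fold and p-value together, had a median of 8, against 9 over all peaks. The upper quartile of all peaks was 17 fragments, which 1 of the 17 peaks exceeded. Of the 17 peaks, 6 rested on 6 fragments, which is the smallest number behind any peak and was found at 28984 of the 116777 nuclear peaks. Peaks at the starts of protein-coding genes had a median of 32 fragments and a fold enrichment of 8.42. The peaks also lay in more repetitive sequence than most. Their soft-masked share had a median of 39.9%, against 14.4% over all peaks, and 76.5% of their summit words occurred once in the genome, against 92.9%. A −log10 q-value of 10 was reached by 1 of the 17 peaks, upstream of Zscan4c, and by 22.2% of all nuclear peaks.

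**Figure D3:**
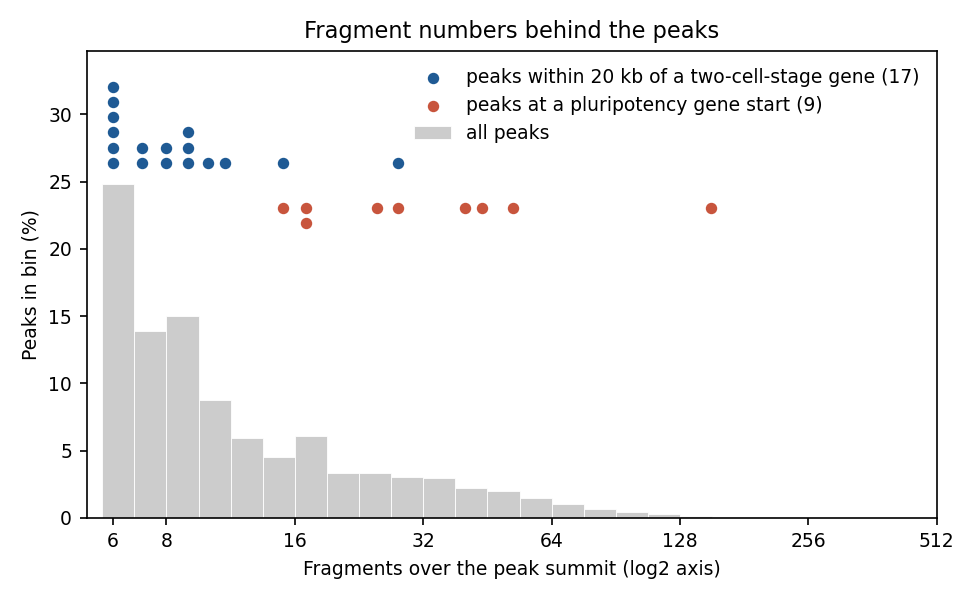
Number of fragments over the summit (log2 axis) for all nuclear peaks (grey bars, percent of peaks in each bin). Blue points show the 17 peaks within 20 kb of a 2-cell-stage gene. Red points show the nearest peak of each of the 9 pluripotency genes with a start peak. The blue points crowd at 6 to 11 fragments with single points at 15 and 28, and the red points run from 15 to 151; the height of points has no meaning beyond stacking.

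Zscan4 genes encode SCAN-domain zinc finger proteins that act in telomere maintenance and are switched on in 2-cell-like cells. Zscan4c (ENSMUSG00000054272.6) lies on the plus strand at chr7:11005745-11010547 of mm10 and had 3 peaks within 20 kb. The strongest, at chr7:10992167-10992830, had its summit 13197 bp upstream of the start, in an intron of the pseudogene Gm7789. It had a fold enrichment of 8.10 with 28 fragments (95% exact Poisson interval 18.6 to 40.5, counting error only) over a background of 2.58, and 85.7% of all peaks had a lower fold. The others, 8334 bp upstream and 18267 bp downstream, had a fold of 2.96 with 8 fragments and of 3.15 with 6 fragments. The downstream one lay wholly in soft-masked repeat sequence, with 713 further matches in the genome at 90% identity or more over at least 50% of its length. Zscan4c thus had the strongest of the 17 peaks, at a distance, and 2 with folds below the lower quartile of all peaks.

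Zscan4d (ENSMUSG00000090714.10, chr7:11161374-11166159, minus strand) had 2 peaks. The stronger was 13656 bp upstream, at chr7:11179442-11180777, with a fold of 6.20 and 15 fragments (interval 8.40 to 24.7). It lay between genes, 2585 bp from the start of the pseudogene Gm6909. The other was 8114 bp downstream of the start, with a fold of 3.24 and 6 fragments. Zscan4f (ENSMUSG00000070828.10, chr7:11397915-11402318, plus strand) had no peak from 141903 bp upstream to 66167 bp downstream of its start. This interval of 208 kb held the starts of 13 annotated genes, of which 2 were protein-coding, and contained no unknown base. Of 113758 stretches between peaks on the autosomes, 264 were longer.

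The strongest Zscan4c peak had a near-identical counterpart before Zscan4f. The sequence at chr7:11384375-11385039 matched the whole peak with 661 identical bases, 3 mismatches and 1 gap base, and its position matching the summit lay 13159 bp upstream of Zscan4f, a placement like that at Zscan4c. No peak was called there. The 151 bases around the summit and their counterpart are shown to let the pair be compared, with the differing base in capitals.
Zscan4c upstream summit, chr7:10992473-10992623, plus strand: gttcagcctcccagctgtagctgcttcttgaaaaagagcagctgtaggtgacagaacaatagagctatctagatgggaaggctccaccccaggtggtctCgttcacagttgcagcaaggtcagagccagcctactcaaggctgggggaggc
Zscan4f counterpart, chr7:11384681-11384831, plus strand: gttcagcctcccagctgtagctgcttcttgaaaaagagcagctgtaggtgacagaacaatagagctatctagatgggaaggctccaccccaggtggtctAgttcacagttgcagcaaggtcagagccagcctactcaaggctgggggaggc
These stretches differ at 1 base. Of 100-base words starting every 10 bases in the Zscan4c peak, 48.2% had a single exact match in the genome, and 54.4% did so in the counterpart. Read pairs that matched both places equally well were written at 1 of them at random in the authors' mapping, and reads with the 129S1 sequence were placed on the C57BL/6J reference. The part of either in the difference between these sites was not tested. The same peak matched a sequence near Zscan4-ps2 at 97% identity, where a peak of 3.04-fold was called. A match near Zscan4a at 93.2% held a peak of 5.36-fold. Another at 92.8%, 49768 bp from Zscan4-ps2, held a peak of 5.05-fold. Of the 7 matches of this Zscan4c peak in all, 4 held a peak and 3 did not. The highest fold, 9.85, was at the match of lowest identity, 90.7%. The weaker peak 8334 bp before Zscan4c was an exact copy of sequence before Zscan4f, where no peak was called, and none of its words had a single match. Its copies at 97.9% and 93.8% identity, near Zscan4-ps2 and Zscan4-ps3, held peaks of 3.10-fold and 3.12-fold. The copy at 92%, 44620 bp from Zscan4-ps2, held a peak of 3.21-fold.

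Zfp352 (ENSMUSG00000070902.5, chr4:90218820-90225702, plus strand) encodes a zinc finger protein and, unlike most of the others, had hardly any copied sequence. Of its start words, 97.8% occurred once in the genome. Soft-masked repeats took up 41.7% of the 500 bp on either side of its start, the highest share of the 10 genes. They took up 45.8% of the gene with 20 kb on either side, against a median of 29.1% over protein-coding genes. Its nearest peak was 15054 bp from the start, with the summit 15211 bp upstream, a fold of 4.16 and 8 fragments. A second peak 17029 bp downstream of the start had a fold of 5.55 and 11 fragments (interval 5.49 to 19.7), which was above the fold of 70.8% of all peaks. Both lay between genes, and no other place in the genome matched either of them at 90% identity over 50% of its length. No peak was thus called over the GGATTA array shown above.

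Tcstv1 and Tcstv3, named for transcripts of variable level at the 2-cell stage, lie in 1 cluster on chromosome 13. Tcstv1 (ENSMUSG00000096284.2, chr13:119893388-119894785, minus strand) had 3 peaks. They lay 3735 and 2333 bp upstream, with folds of 4.62 and 3.12 and 9 and 6 fragments, and 7891 bp downstream, with a fold of 3.70 and 7 fragments. Tcstv3 (ENSMUSG00000095821.2, chr13:120316878-120318178, plus strand) had 1 peak, 2984 bp upstream, with a fold of 3.48 and 7 fragments, and it was the last of the chromosome's list. Unknown bases took up 16539 bases of its locus. Whether matching sequence elsewhere held a peak varied. Of the 17 peaks, 14 had at least 1 match elsewhere at 90% identity over 50% of their length. The best match held a peak for 6 of them and none for 8. The peak nearest to Tcstv1 had matches at 97.8% and 96.6% identity elsewhere in the cluster, and these held peaks too, with folds of 3.12 and 3.70. For the peak 3735 bp upstream, matches at 98.9%, 98.5% and 90.1% held peaks of 4.16-fold, 4.74-fold and 3.48-fold, and the last of these matches overlapped the Tcstv3 peak, whose summit lies outside the matched sequence. The peak 7891 bp downstream had 11 matches, of which 1 held a peak, and its best, at 96.9% in the same cluster, held none. The summit windows of the Tcstv1 peak 3735 bp upstream and of the Tcstv3 peak are shown with CG dinucleotides in capitals, of which they hold 4 and 6, against 0 to 3 in windows of the same length at the Zscan4c, Zscan4d and Zfp352 peaks of highest fold.
Tcstv1 upstream summit, chr13:119898445-119898595, plus strand: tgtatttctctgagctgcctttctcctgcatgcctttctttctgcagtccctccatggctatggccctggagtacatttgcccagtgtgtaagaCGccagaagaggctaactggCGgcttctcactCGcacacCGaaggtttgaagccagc
Tcstv3 upstream summit, chr13:120313819-120313969, plus strand: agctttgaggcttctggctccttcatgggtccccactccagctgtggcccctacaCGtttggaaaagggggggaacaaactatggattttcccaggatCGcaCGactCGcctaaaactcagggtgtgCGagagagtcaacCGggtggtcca

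Tdpoz genes encode proteins with a TRAF domain and a POZ domain. Tdpoz4 (ENSMUSG00000060256.1, chr3:93796398-93797510, plus strand) had the nearest peak of all 10 genes and 5 peaks within 20 kb, the highest number. The nearest ended 781 bp before the start, had its summit 937 bp upstream, and had a fold of 4.46 with 9 fragments (interval 4.12 to 17.1). Its other peaks had folds of 3.07 to 4.01 and 6 to 10 fragments. One of them, 16926 bp downstream of Tdpoz4, was shared with Tdpoz3 (ENSMUSG00000058005.3, chr3:93826020-93827117, plus strand), from which it lay 12696 bp upstream. Tdpoz3 had a further peak 6012 bp upstream, with a fold of 4.24 and 9 fragments. The gene records of Tdpoz4 and Tdpoz3 are 1113 and 1098 bp long, each with 1 transcript start. Whether transcripts of either gene begin farther upstream was not tested, so the distances hold for the annotated starts. The peak nearest to Tdpoz4 had a second copy of 97.6% identity at chr3:93630522-93631094, where a peak of 4.16-fold was called, and another at 95.5%, where none was called, and its 100-base summit word had 2 exact matches in the genome. The Tdpoz4 peaks 9327 and 6829 bp upstream and 5041 bp downstream, and the Tdpoz3 peak 6012 bp upstream, had 1, 1, 3 and 4 matches, and none of these held a peak. The peak shared by Tdpoz3 and Tdpoz4 had 2 matches, of which 1 held a peak. The summit window of the peak nearest to Tdpoz4, shown because no other of the 10 genes had a peak as close, held no CG dinucleotide.
Tdpoz4 upstream summit, chr3:93795386-93795536, plus strand: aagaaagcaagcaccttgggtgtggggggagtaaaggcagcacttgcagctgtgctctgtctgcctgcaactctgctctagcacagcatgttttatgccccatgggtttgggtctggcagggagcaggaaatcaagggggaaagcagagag

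Obox3 and Obox6, which encode homeodomain proteins of the oocyte and early embryo, had no peak within 20 kb. Obox3 (ENSMUSG00000066772.12, chr7:15479825-15639902, minus strand) has a record of 160078 bp with 5 transcript starts, and neither the record nor 20 kb on either side of it held a peak. The nearest peak was 33901 bp upstream, with a fold of 3.24 and 6 fragments. Downstream, the next was 754237 bp away. The peak-free interval around the Obox3 start measured 788 kb with no unknown base and held the starts of 49 annotated genes, 35 of them Obox genes or pseudogenes. On the autosomes, 11 stretches between peaks were longer. Obox6 (ENSMUSG00000041583.8, chr7:15833241-15839678, minus strand) had its nearest peak 24394 bp upstream, with a fold of 3.70 and 7 fragments, in a peak-free interval of 132 kb. Of the start words of Obox6, 100% occurred once in the genome, while 52.2% did so at Obox3. Over the gene with 20 kb on either side, the share was 94.2% at Obox6 and 41.9% at Obox3. The part of read placement in these peak-free intervals was not tested.

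Repeat content and copy number were high around the genes and differed among them. The soft-masked share of the locus, counted over the sequenced bases of the gene with 20 kb on either side, had a median of 44.8%, against 29.1% over protein-coding genes. It was above that value for 9 of 10 genes. Obox3 had the highest share, 66.4%, followed by Obox6 with 60.3%, and Tcstv3 had the lowest with 24.3%. The Zscan4 loci had 48.1%, 51.0% and 41.4% for Zscan4c, Zscan4d and Zscan4f. Over the gene record alone the order turned, with medians of 17.2% for the 10 genes and 22.5% for protein-coding genes, although the records of Obox3 and Obox6 had 64.3% and 50.9%. At the starts, 500 bp on either side, the medians were 20% and 9.59%.

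**Figure D4:**
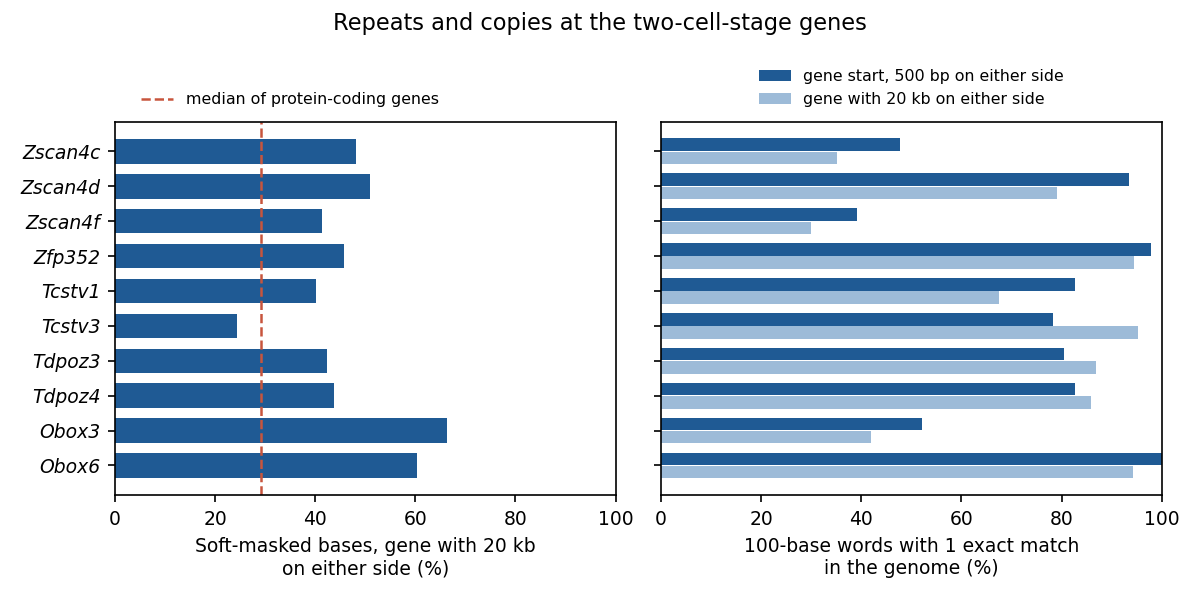
For each 2-cell-stage gene, the soft-masked share of the locus in percent (left; dashed line, median of protein-coding genes) and the percent of 100-base words with 1 exact match in the genome at the start and over the locus (right). Obox3 and Obox6 have the longest bars on the left, and Zscan4c, Zscan4f and Obox3 the shortest on the right.

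Because the reads were 100 bases long, exact matches of 100-base words were counted. They describe single reads. The reads were paired, and a mate in unique sequence can fix the place of a repeated read, so these shares describe the sequence and not the placement of read pairs. At the starts, a median of 81.5% of words occurred once, and Obox6 was the only gene with 100%. Zscan4f with 39.1% and Zscan4c with 47.8% had the lowest shares. Among protein-coding genes, 87.6% had start words that all occurred once, and a start peak was found at 69.8% of these genes. The share with a start peak was 39.6% among the genes with 90% to under 100% of such words, 27.5% among the genes with 50% to under 90%, and 9.40% among the genes with under 50%. The 10 genes thus fell mostly into classes of starts where peaks were less common, with 2 genes in the class under 50%, 5 from 50% to under 90% and 2 from 90% to under 100%. The part of read placement in the absence of start peaks was not tested.

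The promoters with a sequence were also poor in CpG. As only 6 of 10 genes and 63.0% of protein-coding genes had one, under 80%, a check of CpG number over the 10 genes is void, and the values describe these 6 promoters alone. In the 300-base windows, Zscan4c had 4 CpG dinucleotides, Zscan4d and Zscan4f had 3 each, Zfp352 and Obox3 had 2 each, and Tdpoz4 had 0. Protein-coding promoters had a median of 16, and 18.7% of them had fewer than Zscan4c. The ratio of observed to expected CpG was 0.242 at Zscan4c and 0.142 at Zfp352. Peaks at gene starts followed CpG number across the protein-coding genes with a sequence, from 16.9% of starts with 0 to 5 CpG to 97.6% with 26 to 65. With at most 4 CpG, 13.8% of 3142 starts had a peak. Among the 2275 of these starts whose words all occurred once, 16.3% had a peak, but none of the 6 genes is among these 2275. At promoters this poor in CpG, a start peak was thus uncommon in the protein-coding genes with a sequence, and 0 of the 6 genes had one, to be read against the 13.8%.

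**Figure D5:**
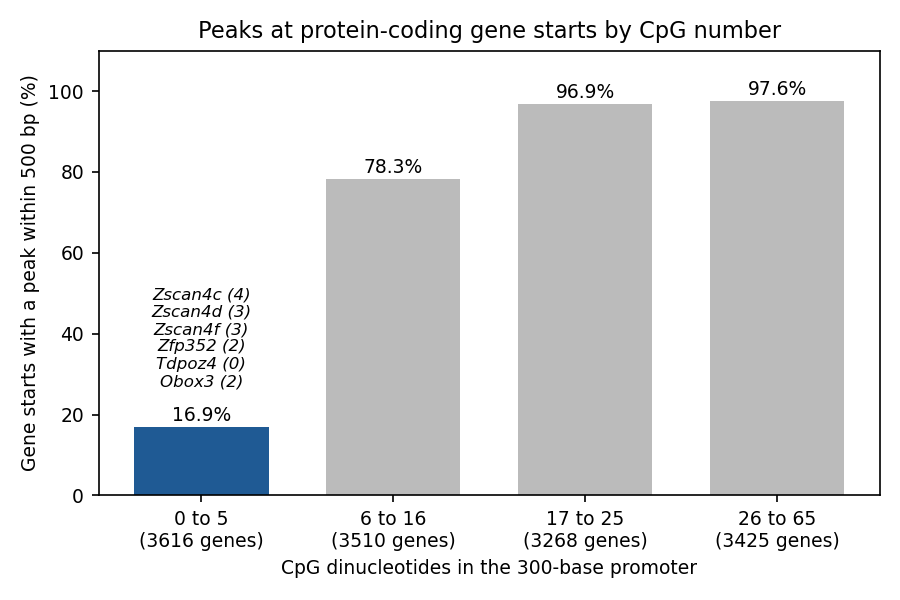
Percent of protein-coding gene starts with an ATAC-seq peak within 500 bp, in 4 bins of CpG number in the 300-base promoter split at the quartiles. The 6 2-cell-stage genes with a promoter sequence, named with their CpG number above the first bar, fall in the bin with the lowest share, 16.9%.

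The wider list held 81 further genes, namely the remaining Zscan4, Tdpoz, Obox and Usp17l genes and pseudogenes and 13 single genes. A start peak was found at 1 of them, Gm4340, whose nearest peak lay 188 bp from the start with a fold of 3.62 and 9 fragments. None of the start words of Gm4340 occurred only once. Gm4340 is 1 of the 31 protein-coding genes of the list, so 3.23% of these had a start peak, against 64.3% of all protein-coding genes. Of the 31 genes, 21 (67.7%) had a peak within 20 kb, against 92.5% of all protein-coding genes, and the median distance was 11686 bp. None of the 50 pseudogenes and lincRNA genes, most of them unprocessed pseudogenes, had a start peak. Such a count is near the background of unprocessed pseudogenes, of which 3.97% had one. Over all pseudogenes of both kinds and lincRNA genes together, the share was higher, at 13.5%. Of the 50, 13 (26%) had a peak within 20 kb, against 44.6% of all unprocessed pseudogenes and 73.2% of all pseudogenes of both kinds and lincRNA genes together, and the median distance was 129868 bp. The 5 other Zscan4 genes annotated as protein-coding and the pseudogene Zscan4a lay between 4660 and 54671 bp from a peak. The 53 other Obox genes and pseudogenes had a median distance of 138326 bp. Duxf3, which encodes the factor DUX and was singled out after its values were seen, was 22323 bp from its nearest peak, which had a fold of 17.3 with 69 fragments.

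Pluripotency genes, the active programme of mESCs, gave the reverse picture. The list held Pou5f1, Sox2, Nanog, Klf4, Esrrb, Tfcp2l1, Zfp42, Prdm14, Dppa2 and Dppa4. A start peak was found at 9 of 10, beside 64.3% of protein-coding genes. All start words occurred once at 9 of these 10 genes, a class in which 69.8% of protein-coding genes had a start peak. The nearest peaks of the 9 pluripotency genes with a start peak had 15 to 151 fragments and folds of 2.17 to 15.9. The lowest fold was at Sox2, which had a further peak 226 bp upstream of its start with a fold of 5.22. Zfp42, a marker of the naive state, had the strongest start peak, with a fold of 15.9 and 151 fragments. Nanog and Klf4 had folds of 4.12 and 5.68 with 40 and 44 fragments, and Pou5f1, the gene of OCT4, had 2.83 with 17 fragments. Esrrb had its nearest peak 4459 bp from the start of the gene record, but a peak lay at the start of another of its transcripts. Within 20 kb, pluripotency genes had 5 to 23 peaks each, and the 10 2-cell-stage genes had 0 to 5. These counts include the gene itself, so longer genes have wider windows. The 23 peaks were at Esrrb, whose window spans 201 kb, while Obox3, with 200 kb, had 0. Dppa2 and Dppa4, which are among the 10 pluripotency genes and encode activators of Dux, had start peaks of 6.16-fold with 25 fragments and 6.53-fold with 28 fragments. Ehmt1 and Ehmt2, which encode the H3K9 methyltransferase pair, had 8.33-fold with 32 fragments and 3.33-fold with 13 fragments.

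The labelled cell type was checked by start peaks. Of 6 stem cell markers, 5 had one, namely Pou5f1, Sox2, Nanog, Klf4 and Zfp42. Over all protein-coding genes the share was 64.3%. Of 10 fibroblast markers, 6 had one, with the highest folds at Col1a2 (7.50), Twist1 (6.59) and Col1a1 (6.42). The 60% of fibroblast markers was near the share of all protein-coding genes, so the counts of these markers show nothing particular to either cell type. Feeder fibroblasts were present in the culture, and a list of peaks cannot tell their DNA from that of mESCs. Their part in the peaks near the 10 genes was not tested.

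A gene start with under 6 fragments over a background of 1.16 or more appears in no row of the list, so the absence of a peak does not show that a start was closed.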

How the data were processed

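ATAC-seq libraries of 2 clones were processed by the authors. Technical replicates were pooled, reads were trimmed with BBMap and mapped to mm10 using STAR 2.7.10, which wrote reads with several best matches at 1 of them at random, and duplicates (Picard 2.26.0) and blacklisted regions were removed. Fragments were shifted for Tn5 before peak calling with MACS2 2.2.6. The deposited fold enrichment is the ratio of the summit pileup plus 1 to the local background plus 1, as the authors' MACS2 gave it. The −log10 p-values and −log10 q-values, also deposited, belong to the summit, with a lowest −log10 q-value of 1.30. The deposited score entered no result. Positions are counted from 1.

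Of the 116782 peaks, 3 mitochondrial ones and 2 from another organism's sequence were left out. The fragment number and Poisson background that together give the deposited fold and p-value were calculated, and the number came out whole, within 0.0001 in −log10 p, for 116778 peaks. On 19436 simulated peaks, 100% of numbers were recovered. Library totals were not analysed here, and intervals cover counting error only. Genes came from GENCODE vM21, an earlier release than the study's. The soft-masked share and exact matches of 100-base words (every 20 bases around starts, every 10 bases over loci, 1 at each summit) came from GRCm38.p6, over 66 sequences. RefSeq promoters were matched to 13819 protein-coding genes (63.0%) with a start within 500 bp. Peaks were searched with BLAST 2.17.0 (90% identity over 50% of the length), a search added after the peaks had been seen. Named were the 10 genes and, in other lists, mostly genes with a start peak or the 3 of highest fold. Also named were Esrrb, Zscan4a and genes that mark the place of a peak or a matching sequence. Members and lists were chosen with earlier results of these data known. Calculations used Python 3.11.15, NumPy 2.4.6, pandas 2.3.3, SciPy 1.17.1, Numba 0.67.0 and Biopython 1.88.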

Additional observations from a re-analysis of the deposited data

How the results depend on the processing

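Of 54 alternative values for 12 results, 39 stayed within 1.5 times the main value. With peaks of −log10 q 10 or more alone, 1 of 10 genes had a peak within 20 kb, against 73.4% of protein-coding genes. This was 1 distinct peak with a fold of 8.10, the median distance was 89081.5 bp (2307 bp over protein-coding genes), and 0 of the 81 further 2-cell-stage genes had a start peak, against 47.1% of protein-coding genes and 27 of 2642 unprocessed pseudogenes. With a window of 2000 bp, 2 of 10 genes (Tcstv1 and Tdpoz4) and 5 of 81 further genes had a start peak, the latter being 4 of 31 protein-coding genes and 1 of 50 pseudogenes and lincRNA genes, against 69.9% of protein-coding genes and 9.31% of unprocessed pseudogenes. The start of any transcript gave 2 of 81 (70% and 3.97%, in the same order), and peaks with a unique summit word 0 of 81 (63.6% and 3.22%). Within 50 kb there were 33 distinct peaks. Distance to the summit gave a median of 284 bp over protein-coding genes. The median soft-masked share was 17.2% over the gene alone and 20% around the start, where protein-coding genes had 9.59%. The smallest number behind any peak was 6 fragments, so weaker accumulations are not seen. Neither clone could be left out, since the list was called on both merged. No paired analysis was possible because the list holds no values for single clones.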

Other observations

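The clusters around the genes differed in peak number. The Tcstv cluster (chr13:119873388-120338178 of mm10) held 43 peaks, or 92.5 per Mb, of which 34.9% had a summit word found once in the genome. Its strongest peak, at chr13:120290268-120291314, had a fold of 12.3 and 51 fragments, was 97.7% soft-masked and lay 9722 bp from the start of BC147527. The Tdpoz cluster (chr3:93631542-93981314) held 18 peaks, or 51.5 per Mb, and its strongest had a fold of 13.6 and 63 fragments. The Zscan4 cluster (chr7:10774242-11634112) held 26 peaks, or 30.2 per Mb, and the Obox cluster (chr7:14311436-15859678) held 17, or 11 per Mb. The strongest Obox peak, at chr7:15731132-15732272, had a fold of 10.7 and 36 fragments, was 99.7% soft-masked, and its summit word matched 8 places. In these clusters, 70.6% to 73.1% of summit words occurred once, other than in the Tcstv cluster. These peaks were singled out after their values were seen.

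Usp17l genes encode deubiquitinases, and the family has members among the 2-cell-stage transcripts. The 6 listed genes and pseudogenes lay 1747 to 35330 bp from a peak, and none had a start peak, against 64.3% of protein-coding genes and 3.97% of unprocessed pseudogenes. Of the 6, 5 are protein-coding.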
